A study of Mus musculus with 4 samples.

Results

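Homologous recombination, Fanconi and checkpoint genes were measured in CD37fl/fl and CD37-/- leukemic stem cells (LSCs). The group was set by a written list of 37 gene symbols, with no cutoff on a measured value. The list was chosen with earlier results of these data known. All 37 were among the 17104 genes in the table. Bone marrow cells of CD37fl/fl, Cre+ mice, depleted of mature lineages, were given MLL-AF9, a fusion oncogene that causes acute myeloid leukemia, from a retrovirus that also carries yellow fluorescent protein (YFP). The cells of all groups therefore carried the same floxed allele, the Rosa26-CreERT2 transgene and MLL-AF9. Tamoxifen, which activates this Cre in every cell that carries it, was given to the primary recipients to make the CD37-/- group, and corn oil to the CD37fl/fl group, so that loss of CD37 and exposure to tamoxifen cannot be told apart. YFP+, c-kit+ LSCs were sorted at week 6 from the bone marrow of secondary male C57 recipients, and RNA of 2 CD37fl/fl and 2 CD37-/- replicates was sequenced. The age of the recipients at sorting and the number of mice behind each library are not given in the labels, so that p-values measure the spread between these libraries, which may be technical. The comparison addresses how the transcriptome of LSCs differs without CD37.

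Homologous recombination repairs a broken chromosome by copying from the sister chromatid. The MRE11-RAD50-NBN complex senses the break, the kinases ATM and ATR signal it, and BRCA1, BRCA2 and the strand exchange genes then bring about the search for the copy. The Fanconi pathway removes crosslinks between the strands: a core complex adds ubiquitin to the pair FANCD2 and FANCI, and nucleases such as MUS81 and those held by SLX4 then cut the stalled fork. In dividing blood cells many of these genes are transcribed in S phase under E2F factors, and inherited loss of the Fanconi genes is known to cause bone marrow failure and leukemia.

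Library depth, implied by the deposited values, ranged from 15327356 to 22627493 reads. The deposited unit is FPKM, with kilobases of the whole gene span, introns included, so levels between genes were compared on reads per kilobase of exon, scaled by depth (exon RPKM). Cd37 was 56.6 and 46.8 FPKM in the CD37fl/fl libraries and 23.2 and 22.9 FPKM in the CD37-/- libraries, which left 44.6% of the CD37fl/fl mean (log2 fold change -1.16, adjusted p = 0.110, limma). By the paper, the loxP sites enclose only part of the Cd37 exons. The value for the whole gene also counts the other exons, so it does not measure how complete the deletion was. Kit, the marker of the sort, was listed at 0.170 and 0.325 FPKM in CD37fl/fl and at 0.327 and 0.434 FPKM in CD37-/- libraries. The libraries of 1 group also differed from each other, by far more than counting error (chi-square divided by its degrees of freedom 93.4 in CD37fl/fl and 61.0 in CD37-/-).

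Windows from RefSeq (GRCm38.p6, 250 bases before to 50 after the annotated start) were at hand for 30 of the 37 genes and for 9039 of the 11364 tested protein-coding genes. A match to an E2F motif (TTTCCCGC, TTTGGCGC, TTTCGCGC or TTTGCCGC, on either strand) was found in 7 of the 30 repair genes (23.3%) and in 4.79% of all tested protein-coding genes. Those 7 were Topbp1, Clspn, Chek2, Fancg, Bard1, Brca2 and Rad51c. The windows of 4 of them are shown 5′ to 3′ on the strand of the gene, with the E2F match in capitals (as the reverse complement of the motif where it lies on the other strand), to set 2 genes that reached an unadjusted p under 0.05 (Topbp1, chr9:103305077-103305376, plus strand, and Fancg, chr4:43010252-43010551, minus strand) beside 2 that did not (Clspn, chr4:126556730-126557029, plus strand, and Brca2, chr5:150522371-150522670, plus strand).
Topbp1: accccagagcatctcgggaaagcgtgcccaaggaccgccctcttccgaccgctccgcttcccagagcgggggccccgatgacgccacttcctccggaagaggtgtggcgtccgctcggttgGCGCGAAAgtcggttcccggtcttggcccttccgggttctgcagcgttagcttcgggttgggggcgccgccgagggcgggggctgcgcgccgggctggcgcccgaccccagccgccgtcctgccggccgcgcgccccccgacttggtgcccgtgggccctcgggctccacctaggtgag
Fancg: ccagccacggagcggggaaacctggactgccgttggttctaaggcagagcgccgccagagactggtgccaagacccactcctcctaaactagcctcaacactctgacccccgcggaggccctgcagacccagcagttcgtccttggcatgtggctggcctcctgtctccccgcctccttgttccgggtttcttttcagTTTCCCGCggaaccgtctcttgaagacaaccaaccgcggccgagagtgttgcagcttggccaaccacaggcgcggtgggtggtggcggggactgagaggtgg
Clspn: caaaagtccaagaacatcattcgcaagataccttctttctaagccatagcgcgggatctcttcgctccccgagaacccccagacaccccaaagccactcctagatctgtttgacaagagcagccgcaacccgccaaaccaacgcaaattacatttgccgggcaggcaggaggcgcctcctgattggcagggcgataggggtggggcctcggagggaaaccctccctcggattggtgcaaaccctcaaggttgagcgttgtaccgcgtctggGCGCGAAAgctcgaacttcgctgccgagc
Brca2: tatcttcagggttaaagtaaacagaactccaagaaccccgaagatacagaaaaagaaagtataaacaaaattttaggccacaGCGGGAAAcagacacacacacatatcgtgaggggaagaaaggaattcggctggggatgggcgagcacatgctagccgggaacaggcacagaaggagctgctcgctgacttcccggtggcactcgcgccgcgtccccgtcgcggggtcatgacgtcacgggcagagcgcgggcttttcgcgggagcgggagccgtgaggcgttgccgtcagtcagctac
Counted from the annotated start, the match lay at -129 in Topbp1, -52 in Fancg, 21 in Clspn and -168 in Brca2.

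E2F matches were found both in genes with a low unadjusted p and in the others. Of the 9 genes with a window that reached an unadjusted p under 0.05 in either direction, 2 held an E2F match, against 5 of the other 21. CCAAT, the site of the factor NF-Y, was matched in 63.3% of the repair genes and in 43.3% of all genes, and CCGGAAG, an ETS site, in 26.7% and 21.0%. The CHR element of late cell cycle genes (TTTGAA or TTCGAA) was matched in 3 of the 30 repair genes and in 16.5% of all genes, and the NRF1 site also in 3 of 30 and in 11.9% of all genes. Members without a window were Rad50, Nbn, Rbbp8, Exo1, Xrcc2, Rad54b and Fancd2.

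**Figure D1:**
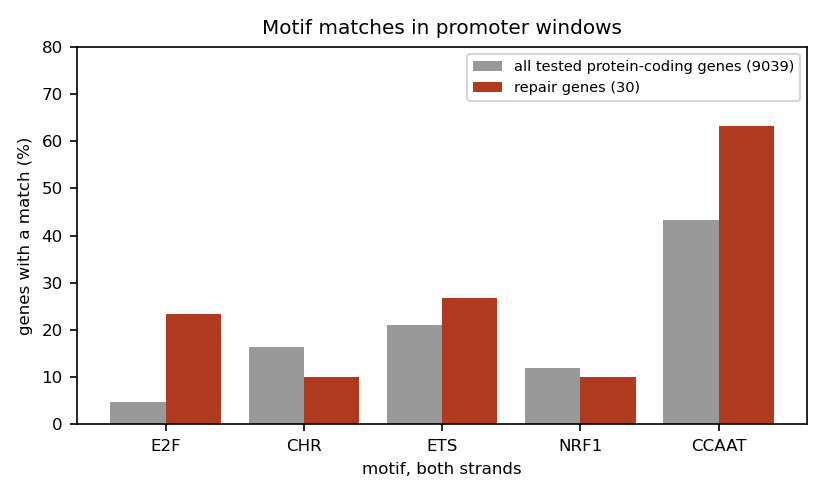
Share of genes (%) with at least 1 match to each motif in the promoter window, for 30 repair genes (red) and 9039 tested protein-coding genes (grey). The E2F share was 23.3% in the repair genes and 4.79% in all genes, while the NRF1 and CHR shares were lower in the repair genes.

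All 37 genes passed the filter for low values (a mean of at least 10 reads per library), with between 57.75 and 2860.75 reads on average and a median of 524.5. Levels spanned a factor of 37.8 on the exon RPKM scale, from Mus81 (14.5 on average), Nbn (14.1), Mre11a (13.9) and Topbp1 (13.0) down to Atr (0.724) and Fancc (0.385). Whereas the sensor and nuclease genes Mus81, Nbn and Mre11a were among the highest, the large kinases Atm (0.945) and Atr were among the 4 lowest. This scale divides by all annotated exons of a gene together, which came to 23629 bases for Atr, the most of the 37 genes. The order of the genes therefore also depends on the annotation.

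**Figure D2:**
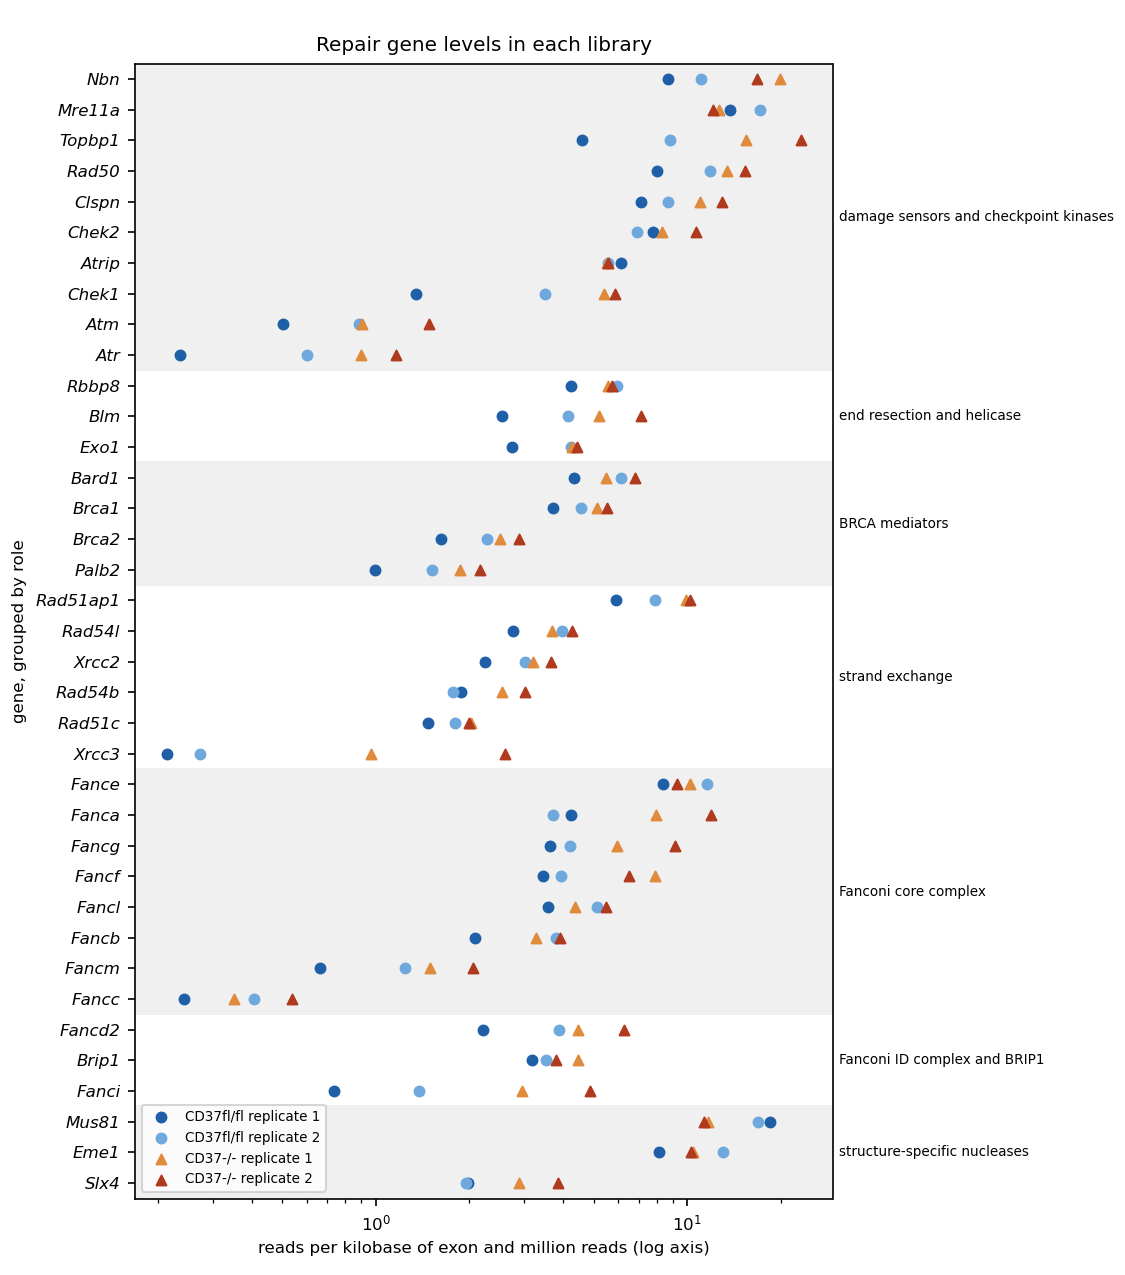
Level of each repair gene (exon RPKM, log axis) in the 2 CD37fl/fl (circles) and 2 CD37-/- libraries (triangles), grouped by role and ordered by mean level. CD37fl/fl replicate 1 is the lowest library for 30 of the 37 genes, and CD37-/- replicate 2 the highest for 27.

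As deposited, most repair genes had higher values in CD37-/- than in CD37fl/fl LSCs (33 of 37), and none passed the adjusted threshold. After correction for exon length 23 of 37 were higher, and after quantile normalization 20. The medians of all genes were then -0.01 and -0.03, and the share of all genes above 0 was not counted under these settings. With limma and Benjamini-Hochberg adjustment over 13056 genes, 0 of the 37 genes had an adjusted p under 0.05, as did 0% of all genes tested, whose smallest adjusted p was 0.0658. By the unadjusted p, 2919 of all genes were under 0.05. The log2 fold change was above 0 for 33 of the 37 genes (89.2%), against 64.1% of all genes, and its median was 0.55 against 0.24. At an unadjusted p under 0.05, 9 genes were higher in CD37-/- (24.3%), against 16.8% of all genes, and 1 was lower, against 5.58%. Both CD37-/- libraries lay above both CD37fl/fl libraries for 26 genes (70.3%), against 41.6% of all genes, and below them for 3 genes (8.11%), against 18.5%. These 3 were Mus81, Mre11a and Atrip, of which Mre11a (0.07) and Atrip (0.31) had a log2 fold change above 0 after rescaling to the same sum (TPM), and the groups overlapped for the other 8 genes. In bulk samples more cells of a kind and more RNA per cell cannot be told apart.

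**Figure D3:**
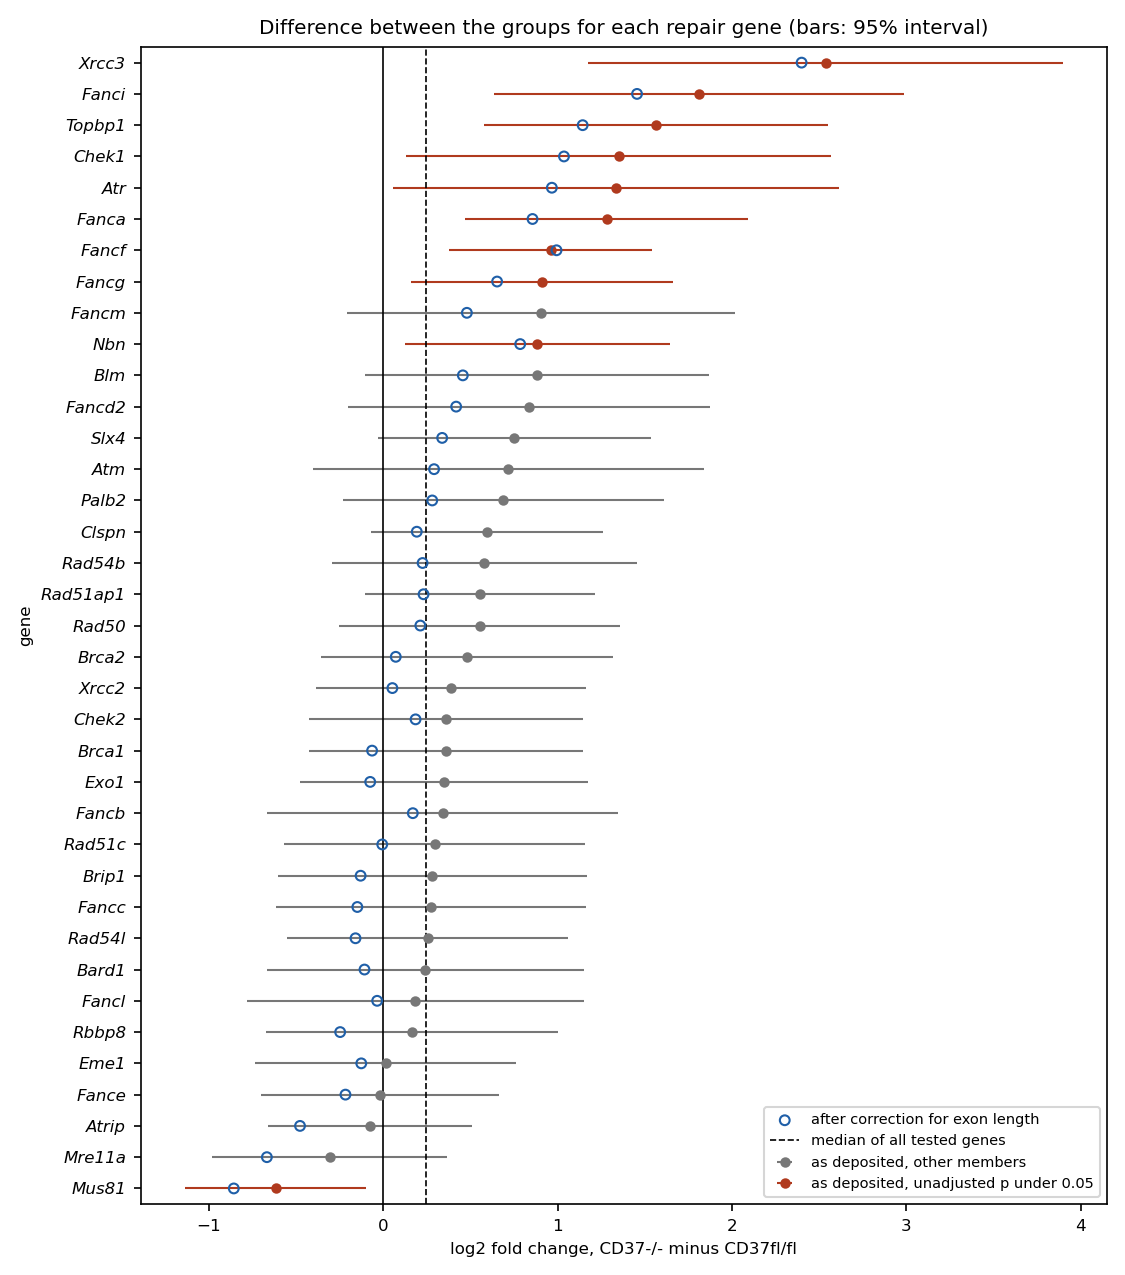
Log2 fold change (CD37-/- minus CD37fl/fl) of the 37 repair genes, with 95% intervals from limma (filled points, red at an unadjusted p under 0.05) and the value after correction for exon length (open circles). The dashed line is the median of all tested genes, 0.24, and 10 genes have an interval that leaves out 0, of which Mus81 is the only one below it.

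Among the sensors and checkpoint kinases (10 genes, median log2 fold change 0.66), 4 were higher at an unadjusted p under 0.05 (40.0%, against 16.8% of all genes) and 6 were not called. Topbp1, the scaffold that switches on ATR, was 1.14 and 2.18 FPKM in CD37fl/fl and 3.83 and 5.74 FPKM in CD37-/- libraries. Its groups did not overlap, with a log2 fold change of 1.57 (standard error 0.40, adjusted p = 0.142). Chek1, the kinase that ATR activates, was 0.337 and 0.873 FPKM in CD37fl/fl and 1.35 and 1.46 FPKM in CD37-/-. Here the CD37fl/fl libraries lay further apart than the CD37-/- libraries (log2 fold change 1.35, standard error 0.49, adjusted p = 0.197). Atr itself was 0.0589 and 0.151 FPKM against 0.224 and 0.292 FPKM, from 85, 247, 375 and 623 reads, with a log2 fold change of 1.34 (standard error 0.52, adjusted p = 0.212). Its partner Atrip, which brings ATR to single-stranded DNA, was 2.704 and 2.47 FPKM against 2.45 and 2.46 FPKM, a log2 fold change of -0.07. The unadjusted p of Atr and of Chek1 stayed under 0.05 without CD37fl/fl replicate 2 and was above it without any other single library. Without CD37fl/fl replicate 1 the log2 fold changes were 0.72 for Atr and 0.68 for Chek1.

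Atm, the kinase that answers double-strand breaks, was 0.0535 and 0.0934 FPKM in CD37fl/fl and 0.0959 and 0.158 FPKM in CD37-/- libraries. The groups did not overlap, by a narrow margin, and the log2 fold change of 0.72 (95% interval -0.41 to 1.84, adjusted p = 0.376) did not pass the test. Clspn, the adaptor between ATR and CHEK1, was 1.38 and 1.68 FPKM against 2.13 and 2.51 FPKM (log2 fold change 0.60, adjusted p = 0.256). Chek2, the kinase downstream of ATM, had a log2 fold change of 0.36 (adjusted p = 0.515).

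The 3 genes of the break-sensing MRN complex differed by unequal amounts, with Mre11a below 0 as deposited and all 3 above 0 after rescaling to the same sum (0.07 for Mre11a, 0.93 for Rad50 and 1.26 for Nbn). Nbn, its signaling subunit, was 0.632 and 0.811 FPKM in CD37fl/fl and 1.45 and 1.22 FPKM in CD37-/- libraries (log2 fold change 0.88, standard error 0.31, adjusted p = 0.186). Rad50, the tethering subunit, was 0.742 and 1.10 FPKM against 1.25 and 1.42 FPKM (log2 fold change 0.55, adjusted p = 0.346). Mre11a, the nuclease subunit, was 1.55 and 1.94 FPKM against 1.43 and 1.37 FPKM, lower in both CD37-/- libraries, with a log2 fold change of -0.31 (adjusted p = 0.517). As a result the ratio of Nbn to Mre11a on the exon RPKM scale, which does not depend on the scaling of the library, was 0.631 and 0.647 in CD37fl/fl and 1.56 and 1.38 in CD37-/- libraries. The ratio of Rad50 to Mre11a was 0.581 and 0.691 against 1.06 and 1.26. These ratios were chosen after the values were seen and were not tested. Of 16 alternatives, Nbn kept an unadjusted p under 0.05 in 11 and lost it in 5, among them fits with 1 library left out. Its log2 fold change lay between 0.71 and 1.06 with 1 library left out.

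Genes of end resection and of the BRCA mediators had smaller median log2 fold changes than the 37 genes together (0.35 and 0.42 against 0.55). Blm, the helicase that helps to resect ends and to dissolve joint molecules, was 0.278 and 0.453 FPKM in CD37fl/fl and 0.567 and 0.774 FPKM in CD37-/- libraries (log2 fold change 0.88, adjusted p = 0.257). Exo1, the resection exonuclease, and Rbbp8, which starts resection together with MRN, had log2 fold changes of 0.35 and 0.17. None of the 3 genes was called at an unadjusted p under 0.05 (against 16.8% higher and 5.58% lower of all genes). Their median was 0.35 (-0.07 after correction for exon length).

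Brca1 was 0.502 and 0.616 FPKM in CD37fl/fl and 0.690 and 0.744 FPKM in CD37-/- libraries. The groups did not overlap, but the log2 fold change of 0.36 (95% interval -0.43 to 1.15, adjusted p = 0.514) was close to the median of all genes, and it turned to -0.08 after quantile normalization and to -0.06 after correction for exon length. Brca2, a mediator of strand exchange, was 0.465 and 0.650 FPKM against 0.717 and 0.827 FPKM (log2 fold change 0.48, 95% interval -0.36 to 1.32, adjusted p = 0.422). Palb2, the bridge between BRCA1 and BRCA2, was 0.284 and 0.433 FPKM against 0.530 and 0.617 FPKM (log2 fold change 0.69, adjusted p = 0.314), and Bard1, the partner of BRCA1, overlapped between the groups (log2 fold change 0.24). Of these 4 mediators 0 had an unadjusted p under 0.05 (against 16.8% higher and 5.58% lower of all genes). Their median log2 fold change was 0.42, with 0.00 after correction for exon length and -0.02 after quantile normalization.

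Xrcc3, a gene of strand exchange, had the largest log2 fold change of the 37 genes, from few reads. It was 0.0550 and 0.0702 FPKM in CD37fl/fl and 0.248 and 0.670 FPKM in CD37-/- libraries, from 9, 13, 47 and 162 reads. Both CD37-/- libraries were above the CD37fl/fl libraries, while they differed widely from each other (log2 fold change 2.54, standard error 0.55, adjusted p = 0.122). The unadjusted p stayed under 0.05 in all 14 alternatives that tested this gene, with log2 fold changes between 1.67 and 3.24. At this locus (GRCm38, chr12:111803192-111813873, minus strand) Klc1, a gene on the opposite strand with a log2 fold change of 0.66, covers 43.6% of the Xrcc3 span, and the strand setting of the counting is not given in the sources used here, so that reads of the 2 genes cannot be told apart. Such an overlap on the opposite strand was found for 12 of the 37 genes.

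The other 5 genes of strand exchange were not called at an unadjusted p under 0.05 (against 16.8% higher and 5.58% lower of all genes). Rad51ap1, a cofactor of strand exchange, was 1.72 and 2.30 FPKM against 2.88 and 2.97 FPKM (log2 fold change 0.56, adjusted p = 0.275). Rad54b, a motor protein of the SNF2 family, was 0.190 and 0.180 FPKM against 0.259 and 0.306 FPKM (log2 fold change 0.58, adjusted p = 0.360). Xrcc2, Rad51c and Rad54l had log2 fold changes of 0.39, 0.29 and 0.26.

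In the Fanconi core complex (8 genes, median log2 fold change 0.62), 3 were higher at an unadjusted p under 0.05 (37.5%, against 16.8% of all genes). After correction for exon length the median was 0.32, with 2 higher (25.0%, against 10.9% of all genes). Fanca was 0.740 and 0.645 FPKM in CD37fl/fl and 1.38 and 2.07 FPKM in CD37-/- libraries (log2 fold change 1.28, standard error 0.33, adjusted p = 0.143). Fancf, an adaptor of the complex, was 3.43 and 3.92 FPKM against 7.87 and 6.51 FPKM (log2 fold change 0.96, standard error 0.24, adjusted p = 0.137). Fancg, which binds FANCA directly, was 1.69 and 1.95 FPKM against 2.76 and 4.24 FPKM (log2 fold change 0.91, standard error 0.30, adjusted p = 0.177). Zfp276, on the opposite strand, covers 2.88% of the Fanca span and had a log2 fold change of 0.94, and Gas2 covers 15.0% of the Fancf span with 0.63. In all 3 genes both CD37-/- libraries were above both CD37fl/fl libraries, and the CD37fl/fl libraries were close to each other. Fancm, the DNA translocase that brings the complex to chromatin, was 0.122 and 0.230 FPKM against 0.276 and 0.380 FPKM (log2 fold change 0.90, adjusted p = 0.285). Fancl, the ubiquitin ligase subunit, Fancb, Fancc and Fance overlapped between the groups, with log2 fold changes between -0.02 and 0.34. The unadjusted p was above 0.05 without CD37-/- replicate 2 for Fanca (log2 fold change 0.99) and Fancg (0.60), without CD37-/- replicate 1 for Fancf (0.82) and without CD37fl/fl replicate 1 for Fancg (0.81).

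Both partners of the ID complex, on which the core complex acts, differed in size. Fanci was 0.0727 and 0.137 FPKM in CD37fl/fl and 0.292 and 0.483 FPKM in CD37-/- libraries, the second largest log2 fold change of the group (1.81, standard error 0.47, adjusted p = 0.145). Fancd2 was 0.268 and 0.469 FPKM against 0.541 and 0.760 FPKM (log2 fold change 0.84, 95% interval -0.20 to 1.88, adjusted p = 0.290). The ratio of Fanci to Fancd2 was 0.333 and 0.357 in CD37fl/fl and 0.662 and 0.781 in CD37-/- libraries on the exon RPKM scale, again with no test. Polg, on the opposite strand, shares 4034 bases with Fanci (6.92% of its span) and had a log2 fold change of 1.54. Brip1, a helicase that binds BRCA1, had a log2 fold change of 0.28. Without CD37-/- replicate 2 the unadjusted p was above 0.05 for Fanci (log2 fold change 1.46) and for Topbp1 (1.27).

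The 3 structure-specific nucleases had log2 fold changes of -0.62, 0.01 and 0.75, with 1 gene lower and 0 higher at an unadjusted p under 0.05 (against 5.58% and 16.8% of all genes). Mus81, which cuts stalled forks, was 10.8 and 9.91 FPKM in CD37fl/fl and 6.84 and 6.67 FPKM in CD37-/- libraries. The libraries of each group were close to each other and the groups were well apart (log2 fold change -0.62, standard error 0.21, adjusted p = 0.183). The log2 fold change of Mus81 was -0.24 after rescaling to the same sum (TPM, unadjusted p = 0.384, limma). It was -0.74 after quantile normalization (unadjusted p = 0.0124, limma). Eme1, the partner of Mus81, was 2.50 and 4.01 FPKM against 3.22 and 3.17 FPKM (log2 fold change 0.01). Slx4, the scaffold that holds several nucleases, was 0.614 and 0.604 FPKM against 0.894 and 1.19 FPKM (log2 fold change 0.75, adjusted p = 0.233). With 1 library left out, Mus81 kept an unadjusted p under 0.05 only without CD37fl/fl replicate 2, with log2 fold changes between -0.68 and -0.55, and it lost the call with the replicate number as a block.

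Long transcripts were higher in CD37-/- libraries in the whole table, and the repair genes are long. Their median exon length was 5927 bases, against 4043.5 bases over all tested genes. Over all tested protein-coding genes the median log2 fold change was -0.35 under 1 kb of exon, 0.15 between 2 and 4 kb, 0.33 between 4 and 6 kb and 0.41 at 8 kb or more. The repair genes had medians of 0.34 (9 genes), 0.55 (9 genes) and 0.72 (11 genes) in the last 3 of these bins, each above that of all genes. After a correction of each library for a smooth trend on exon length, which was chosen after seeing the data, the median of the repair genes was 0.19 and that of all genes -0.01, and the 10 genes that turned below 0 were Brca1, Bard1, Exo1, Rbbp8, Rad51c, Rad54l, Brip1, Fancc, Fancl and Eme1. Then 6 genes were higher (16.2%) at an unadjusted p under 0.05, against 10.9% of all genes, and 2 were lower (5.41%), against 9.13%. Xrcc3, Fanci, Topbp1, Fancf, Fanca and Nbn were the higher ones, with log2 fold changes of 2.40, 1.46, 1.14, 0.99, 0.86 and 0.79. Mus81 (-0.86) and Mre11a (-0.67) were the lower ones. RNA quality was not measured in these files, and its part in the trend was not tested.

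**Figure D4:**
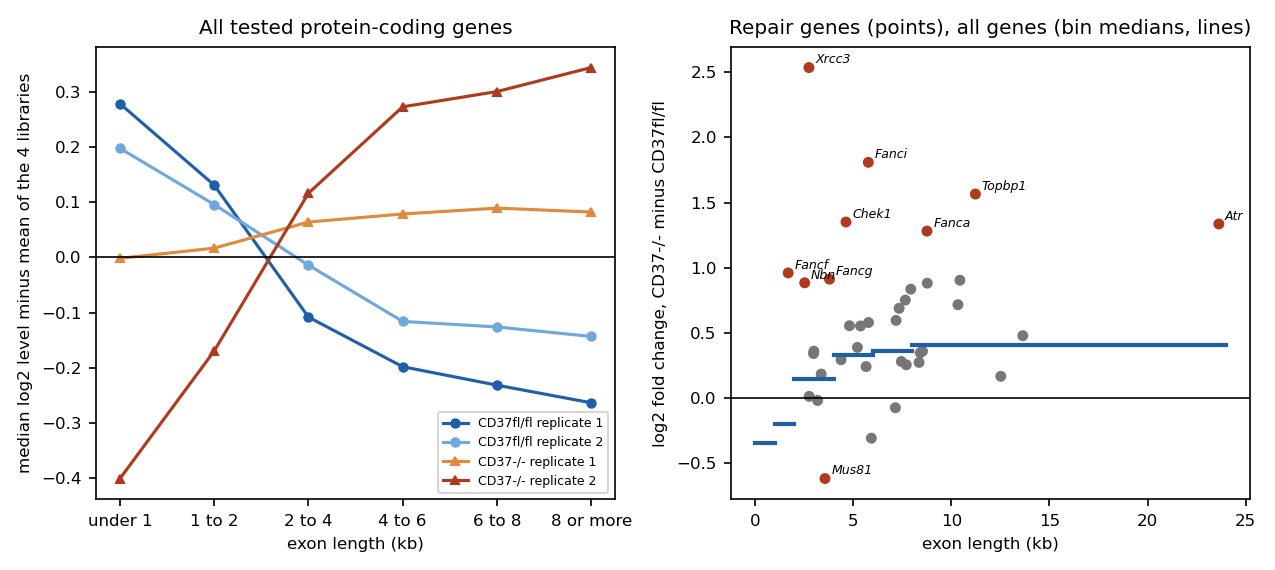
Left, median log2 level of all tested protein-coding genes in each library, minus the mean of the 4 libraries, by exon length (kb). Right, log2 fold change (CD37-/- minus CD37fl/fl) of the 37 repair genes against their exon length, red at an unadjusted p under 0.05, with blue lines for the medians of all protein-coding genes in each bin, which go from -0.35 under 1 kb to 0.41 at 8 kb or more.

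Genes of dividing cells, and all tested genes as well, stood in the same order of libraries as the repair genes. The median log2 level of the repair genes, relative to the mean of the 4 libraries, was -0.48 and -0.02 in CD37fl/fl replicates 1 and 2 and 0.16 and 0.34 in CD37-/- replicates 1 and 2. That of 16 dividing-cell genes was -0.60, -0.03, 0.31 and 0.39, and that of all genes -0.15, -0.06, 0.07 and 0.18. Of these 16 genes 8 were higher at an unadjusted p under 0.05 (50.0%, against 16.8% of all genes), among them Plk1 (0.96), Ccna2 (0.97) and Kif11 (1.12). The median log2 fold change of the 16 was 0.73. Below 0 was 1 gene (-0.60), with both CD37-/- libraries under both CD37fl/fl libraries. After correction for exon length the median was 0.42, and 4 genes were higher (25.0%, against 10.9% of all genes). The part of cell division in the repair gene values was not tested. Markers of other cells also differed: the share of reads in 7 erythroid markers was 0.00727% and 0.000655% in CD37fl/fl and 0.0711% and 0.0189% in CD37-/- libraries, and that in 6 late neutrophil markers 0.588% and 0.0901% against 1.05% and 0.789%. Neither list was lowest in CD37fl/fl replicate 1, where 30 of the 37 repair genes (81.1%, against 39.7% of all tested genes) were lowest, and their part was not tested.

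**Figure D5:**
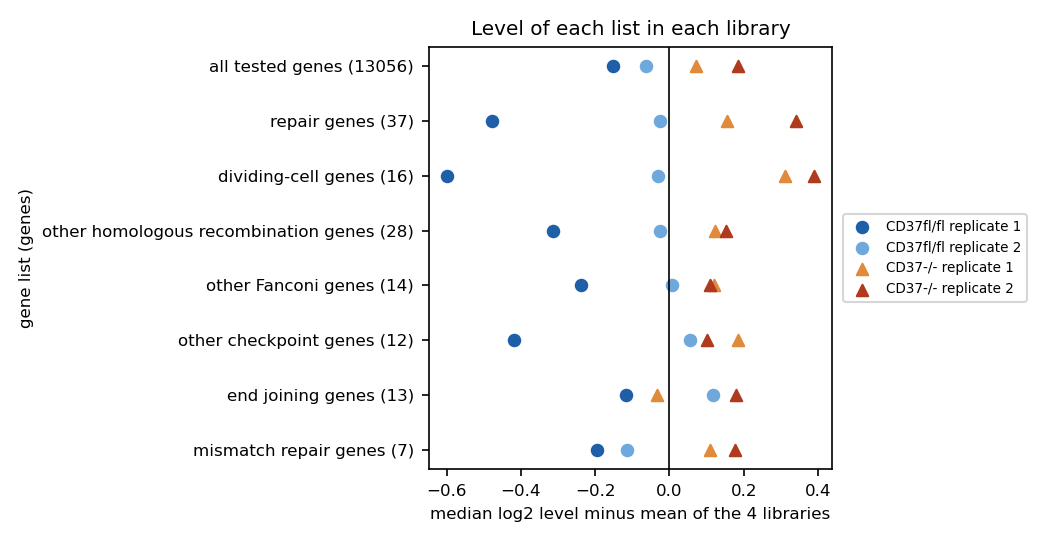
Median log2 level of each gene list in each library, minus the mean of the 4 libraries (number of genes in brackets). The repair genes go from -0.48 in CD37fl/fl replicate 1 to 0.34 in CD37-/- replicate 2, and the dividing-cell genes from -0.60 to 0.39 in the same order of libraries. All tested genes also keep this order, from -0.15 to 0.18.

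Related repair genes outside the 37 had lower medians, while the share called higher at an unadjusted p under 0.05, 16.8% of all genes and 24.3% of the 37, was 10.7% of the other homologous recombination genes, 28.6% of the other Fanconi genes, 16.7% of the other checkpoint genes, 30.8% of the end joining genes and 28.6% of the mismatch repair genes. Of 28 other homologous recombination genes (median log2 fold change 0.29), Dna2 (0.96), Fignl1 (1.08) and Etaa1 (0.82) were higher at an unadjusted p under 0.05 and Swi5 (-0.66) was lower. Of 14 other Fanconi genes (median 0.14), Dclre1b (0.70), Fan1 (1.29), Dclre1a (1.10) and Usp1 (0.66), the enzyme that removes ubiquitin from FANCD2, were higher and Cenps (-0.95) was lower. Of 12 other checkpoint genes (median 0.28), Rif1 (0.99) and Timeless (0.92) were higher. End joining, which repairs breaks without a copy, had a median of 0.00 over 13 genes, with Polm (2.23), Dclre1c (1.22), Lig3 (0.89) and Lig4 (1.04) higher and Poll (-0.62) lower. Of 7 mismatch repair genes (median 0.31), Pms2 (2.39) and Mlh3 (1.14) were higher. After correction for exon length the medians of these 5 lists were 0.01, -0.18, -0.05, -0.22 and -0.10.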

How the data were processed

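Poly(A) RNA of 2 CD37fl/fl and 2 CD37-/- LSC libraries was sequenced with a strand-specific kit. Values were deposited by the authors as FPKM for each gene, with neither a log nor pooled replicates. The submitters' processing notes name fastp 0.20.1, STAR 2.7.7a, featureCounts 2.0.0, edgeR and the build mm39. The annotation and strand setting are not given in the sources used here. Identifiers were matched to GENCODE M21 on GRCm38 (17045 of 17104, 99.7%), and with its gene spans 98.9% of values came out as whole reads (within 0.05 reads), so that these spans were used. Spans on mm39 were not tried. Totals then came to between 15139063 and 22562837 reads, which limit precision for low genes.

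Genes that averaged 10 or more reads over the libraries entered limma 3.58.1 in R 4.3.3 (lmFit, then eBayes with its trend option) as log2(FPKM + 0.01), on which the fold change of low genes is understated, and p-values were two-sided and adjusted by Benjamini-Hochberg, with 0.05 as threshold. A lower filter than a mean FPKM of 1 was needed, since only 15 of the 37 genes reach it. The code was tested on simulated data. Tables were made in Python 3.11.15 with numpy 2.4.6 and pandas 2.3.3, and figures with matplotlib 3.10.9. The members and lists were chosen with earlier results of these data known. Full values are given for genes with an unadjusted p under 0.05 or with groups apart by a log2 fold change of 0.5 or more in size, and for Brca1, Brca2, Atm, Atr, Chek1, Fancd2 and Fanca. Of the other lists, at most 6 genes by smallest p are named. Lists of other cell types are summarised in the closing section. Promoters came from RefSeq on GRCm38.p6, and protein sequences were not used here. Alternatives were the pseudocount, filters, quantile, TPM and upper quartile scaling, eBayes options, voom on recovered reads, the replicate block, each library left out, and, added later, the correction for exon length (lowess span 0.3).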

Additional observations from a re-analysis of the deposited data

How the results depend on the processing

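With 2 libraries a group, the direction of the median of the 37 repair genes held under every alternative run, and its size and the number of called genes did not. The number of all genes at an adjusted p under 0.05, 0 as reported, was 35 with a mean of at least 100 reads, 234 after rescaling to the same sum (TPM), 1 without a trend and 2 with robust estimation, and between 0 and 78 with 1 library left out (78 without CD37fl/fl replicate 1). No repair gene was among them in any of these. The median log2 fold change of the repair genes, 0.55, was 0.12 after quantile normalization, 0.93 with TPM and 0.19 after correction for exon length, and between 0.35 (without CD37fl/fl replicate 1) and 0.74 (without CD37fl/fl replicate 2) with 1 library left out. The same scalings moved the median of all genes to -0.03, 0.60 and -0.01. At an unadjusted p under 0.05 the 9 higher genes became 5 of 37 after quantile normalization (against 9.67% of all genes). They became 14 with TPM (29.0%) and 5 after division by the upper quartile (11.2%). With 1 library left out the number moved both ways. Without CD37fl/fl replicate 1, and without CD37-/- replicate 2, the share of the 37 called higher was below that of all genes. The 1 lower gene (5.58% of all genes) became 2 after quantile normalization (9.92% of all genes) and after correction for exon length (9.13%). It became 0 with TPM (2.05%) and without a trend (4.82%). With the replicate number as a block, 10 genes were higher (16.6% of all genes), 0 lower (5.28%), and 0 genes in the table passed the adjusted p. The labels do not say that the numbers pair the libraries, and the deviations of same-numbered libraries correlated at -0.06. With voom on the recovered reads, 13 were higher (19.1% of all genes) and 1 lower (6.17%). In that fit 0 genes had an adjusted p under 0.05 and 3303 an unadjusted p under 0.05 (2919 as reported). Of the 37 genes, 16 had a log2 fold change on the other side of 0 under at least 1 alternative. Among the 22 genes chosen by the naming rule this was Brca1 (-0.080 after quantile normalization, -0.064 after correction for exon length). The cause was not tested.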

Other observations

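Markers of the sorted cells and of other blood cells were read as lists. Of the 10 markers of myeloid leukemia cells, 1 was higher and 1 lower at an unadjusted p under 0.05, with a median log2 fold change of 0.19. No T and NK cell marker passed the filter for low values. The 3 tested B cell markers had a median of -0.01, the 6 macrophage markers of -0.24, the 3 megakaryocyte markers of 0.84 and the 2 endothelial and stromal markers of 0.60. At an unadjusted p under 0.05, 1 B cell marker was lower (against 5.58% of all genes). Higher were 1 macrophage, 0 megakaryocyte and 1 endothelial and stromal marker (against 16.8%). The macrophage markers ranged from -0.98 to 3.58. The 7 erythroid markers, which were in both CD37-/- libraries above both CD37fl/fl libraries, had a median of 3.57, and 7 of 7 were higher at an unadjusted p under 0.05. The 6 late neutrophil markers all had a log2 fold change above 0 (median 1.76), with 0 called at an unadjusted p under 0.05. Hbb-bt, a globin gene, was 2.08 and 0.509 FPKM in CD37fl/fl and 42.1 and 10.3 FPKM in CD37-/- libraries.

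Ratios of other partner genes were also read. On the exon RPKM scale the ratio of Bard1 to Brca1 was 1.16 and 1.34 in CD37fl/fl and 1.07 and 1.23 in CD37-/- libraries, so that the groups overlapped. The ratio of Palb2 to Brca2 was 0.612 and 0.668 against 0.741 and 0.747. That of Eme1 to Mus81 was 0.440 and 0.774 against 0.900 and 0.909, and that of Atr to Atrip 0.0383 and 0.108 against 0.161 and 0.209. These ratios were chosen after the values were seen and were not tested.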
